A study of Mus musculus with 4 samples.

Results

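Myc is a transcription factor that raises the capacity of a cell to grow, and ribosome biogenesis is among the processes it drives most directly. Ribosomal RNA is transcribed, cleaved and modified in the nucleolus, where it joins ribosomal proteins, and dividing or activated T cells spend much of their energy on this work. The 9 genes described here, chosen by their symbols, are Myc and 8 genes grouped with it as growth genes. Ncl codes for nucleolin, a nucleolar RNA-binding protein, and Npm1 for nucleophosmin, a nucleolar chaperone. Nop56 and Fbl code for parts of the particle that methylates ribosomal RNA, with fibrillarin as its methyltransferase. Srm (spermidine synthase) and Odc1 (ornithine decarboxylase) belong to polyamine synthesis. The product of Mettl1 methylates transfer RNA, and that of Ifrd2 binds ribosomes. These genes are 9 of the 31053 genes in the deposited count tables, and each symbol matched 1 row.

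The cells studied were invariant natural killer T (iNKT) cells, which recognise lipids on CD1d through a nearly fixed T cell receptor and mature in the thymus from stage 0 precursors into the effector subsets iNKT1, iNKT2 and iNKT17. The 4 libraries came from untreated mice 8 to 9 weeks old, 2 wildtype C57BL/6 mice and 2 Hivep3-/- mice of the same strain background, in which the gene for a zinc finger protein is inactivated in all cells, and each library is 1 mouse. Thymocytes that bound the PBS57-CD1d tetramer were sorted in equal parts as CD44 low and CD44 high cells. Droplet sequencing from the 5′ end of transcripts followed. The sort thus set the balance of CD44 low to CD44 high cells, and the shares of early and mature cells in a library need not be those of the thymus. The question was how iNKT subsets differ in expression and what changes without Hivep3, and here it is asked of the growth genes.

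After filtering, 19647 cells remained, between 3651 and 7231 a library, with a median of 4596 to 6833 unique molecular identifiers (UMIs) per cell. Pairs of libraries shared between 22 and 46 cell barcodes. The first C57BL/6 library had 17330 Xist UMIs and no Y-linked UMI, whereas the other 3 had between 4107 and 5590 Y-linked UMIs and at most 25 of Xist, so 1 wildtype mouse differed in sex from the other 3. Mice of both sexes were used according to the methods, while the wildtype mice of this experiment are described as female. Hivep3 itself was counted at 38.5 and 36.4 UMIs per 1000000 (CPM) in the C57BL/6 libraries and at 101 and 68.0 CPM in the libraries labelled Hivep3-/-. Which part of the gene was deleted is not stated in the sources, and UMIs from outside that part cannot check the knockout.

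Clustering without the 9 genes, the lists of related genes or the T cell receptor segments gave 14 clusters, and 11 of these were named by marker genes as stage 0-like, cycling-like, iNKT2-like, iNKT17-like or iNKT1-like. These names were rebuilt here with a scoring rule set after the data were seen, so a difference from the study's clusters can come from the names. The iNKT1-like class held 11604 cells, between 49.4% and 68.4% of a library. Stage 0-like cells were 4.78% and 3.20% of the C57BL/6 libraries and 7.94% and 9.55% of the Hivep3-/- libraries, and cycling-like cells were 19.5% and 12.7% against 4.83% and 9.07%. A cluster of 64 cells, 43 of them from Hivep3-/- mouse 1, was left out: it was named B cell-like from Cd74 and Cd79a, but S1pr5, Klrg1 and Gzma were also among its leading genes, and at resolution 0.4 a cluster of 44 cells led by S1pr5, Klrg1 and Gzma was named iNKT1-like. The 2 clusters left without a name took 4.00% and 1.15% of the C57BL/6 cells and 6.85% and 9.86% of the Hivep3-/- cells. Summed stage 0 markers such as Cd24a and Itm2a lay between 8195 and 10560 CPM in stage 0-like cells and at most 637 CPM in iNKT1-like cells. The same markers named the stage 0-like class, so this gap is no separate support for the name.

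The proximal promoters of 5 of the 9 genes were among those examined, each from 250 bases before to 50 after the RefSeq transcription start (GRCm38.p6). Myc binds with Max at the E-box CACGTG and less well at the variant CACGCG, which reads as CGCGTG from the other strand, so both strings were searched on both strands. CACGTG stood in 7.15% of all 32851 promoters and CACGCG in 9.27%, and 8.09% and 10.5% of the 27025 genes with a promoter held them in at least 1. Of the 5 genes, Mettl1 held CACGTG 30 bases after its start, Odc1 held CACGCG 180 and 101 bases before its start, Ifrd2 held it 58 bases before, and Ncl and Nop56 held neither. Of the related genes in 8 lists, 35 of 120 with a promoter held CACGTG (29.2%) and 32 held CACGCG (26.7%). A match is a string in a window and is no evidence of binding. The 3 stretches with a match are given 5′ to 3′ on the strand of the gene, the motif in capitals, because these genes are compared below:
Odc1, chr12:17544673-17544872, plus strand: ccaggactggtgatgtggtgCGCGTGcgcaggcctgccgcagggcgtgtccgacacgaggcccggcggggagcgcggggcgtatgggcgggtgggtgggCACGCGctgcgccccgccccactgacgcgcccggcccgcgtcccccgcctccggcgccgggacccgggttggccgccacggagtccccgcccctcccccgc
Ifrd2, chr9:107587518-107587717, plus strand: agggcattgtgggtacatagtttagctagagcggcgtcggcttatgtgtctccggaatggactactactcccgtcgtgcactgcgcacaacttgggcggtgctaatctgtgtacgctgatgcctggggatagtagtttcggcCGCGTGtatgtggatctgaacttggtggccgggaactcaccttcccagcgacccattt
Mettl1, chr10:127041950-127041979, plus strand: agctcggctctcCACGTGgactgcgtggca

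All 9 are protein-coding genes, and in the mm10 annotation Myc (ENSMUSG00000022346) lies at chr15:61985391-61990374 on the plus strand. Nop56 (chr2:130274430-130279313) overlaps Idh3b on the opposite strand, and Mettl1 (chr10:127041414-127046365) overlaps Eef1akmt3 on the opposite strand. Levels below are UMIs summed over the cells of a class in 1 library, per 1000000 UMIs of that sum (CPM). They compare classes for 1 gene and do not rank the genes. Levels are given for C57BL/6 mouse 1, C57BL/6 mouse 2, Hivep3-/- mouse 1 and Hivep3-/- mouse 2, in that order. Classes came from the same cells, so their differences are described without a test.

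Myc was spread over the subsets unlike the ribosome biogenesis genes. Its level was 131, 111, 145 and 81.5 CPM in stage 0-like cells and 134, 78.3, 125 and 105 CPM in iNKT1-like cells. These ranges overlapped, and the mean log2 ratio of stage 0-like over iNKT1-like cells was 0.08 ± 0.37 (SD, n = 4), above 0 in 2 libraries. In cycling-like cells Myc lay at 74.4, 56.3, 133 and 71.1 CPM, and in iNKT2-like cells at 83.7, 67.6, 111 and 50.8 CPM. Levels in iNKT17-like cells, at 46.8, 31.3, 41.1 and 29.4 CPM, were the lowest of the 5 classes in every library and did not overlap those of any other class. Against iNKT1-like cells the mean log2 ratio was -1.57 ± 0.22 (SD, n = 4) for iNKT17-like and -0.53 ± 0.42 for iNKT2-like cells, below 0 in all 4 libraries for both. Cycling-like cells were below stage 0-like cells for Myc in all 4 libraries, with a log2 ratio of -0.53 ± 0.43.

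**Figure D1:**
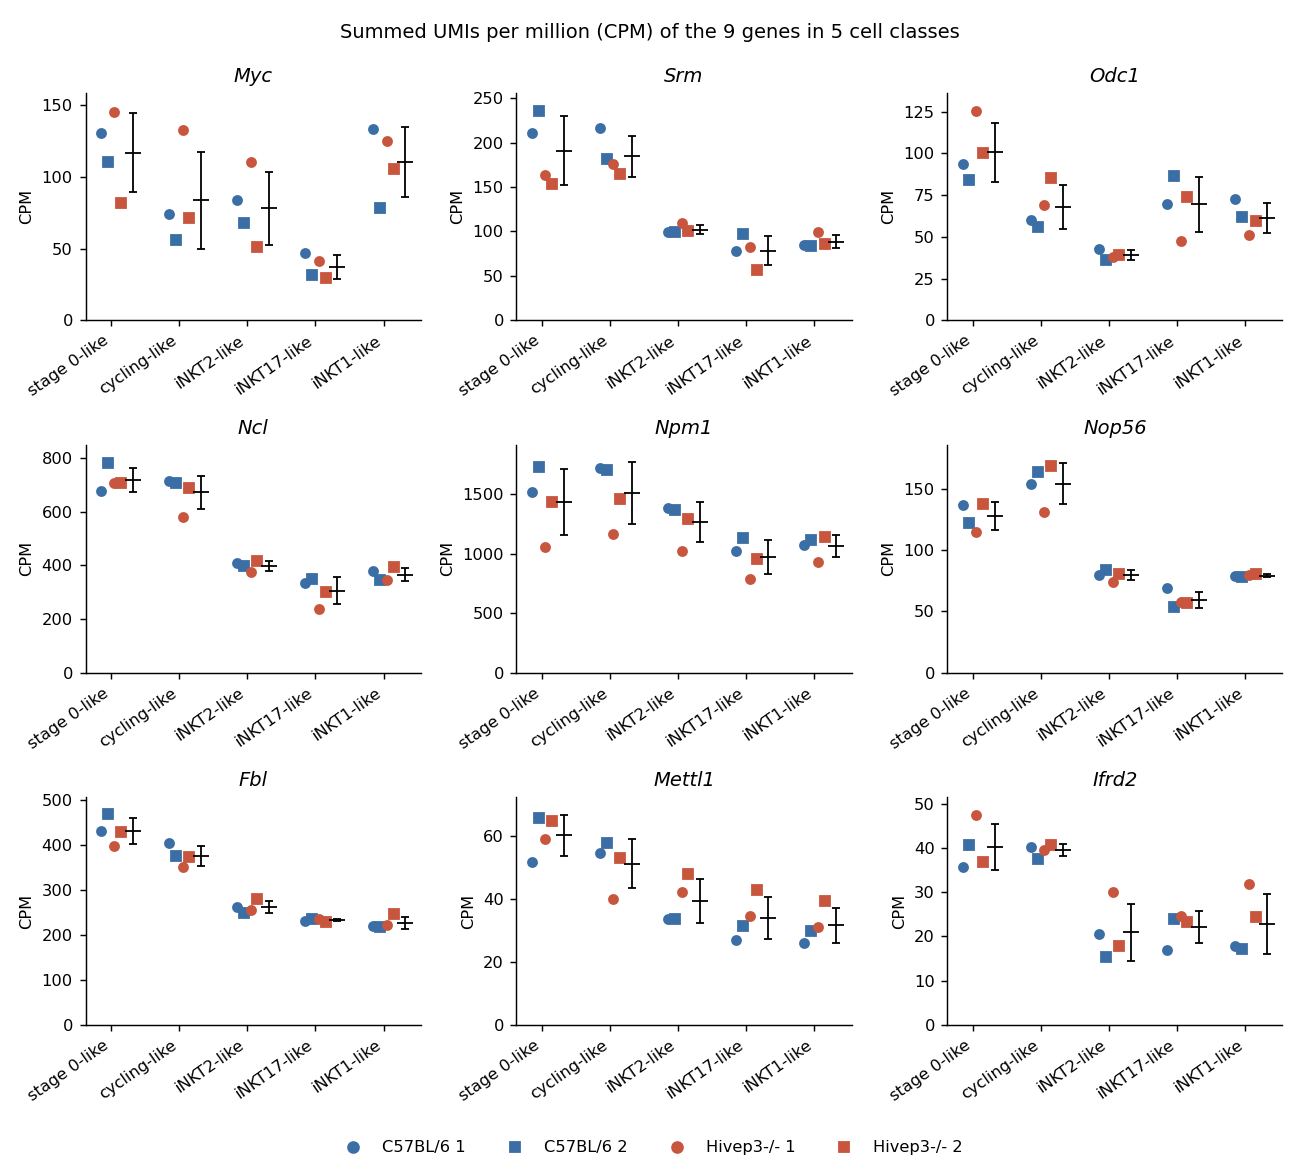
Summed UMIs per 1000000 (CPM) of the 9 genes in 5 cell classes, 1 point per library (blue C57BL/6, red Hivep3-/-), with the mean of the 4 libraries and bars of 1 SD. Ncl, Fbl, Nop56 and Srm sit highest in stage 0-like and cycling-like cells, whereas Myc overlaps between iNKT1-like cells (mean 111 CPM) and stage 0-like cells (mean 117 CPM) and is lowest in iNKT17-like cells.

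The nucleolar genes were highest in the stage 0-like and cycling-like cells of every library. Ncl was at 679, 782, 707 and 708 CPM in stage 0-like cells, at 714, 707, 582 and 689 CPM in cycling-like cells and at 378, 346, 347 and 393 CPM in iNKT1-like cells. The first 2 of these classes overlapped each other and neither overlapped the third, and the log2 ratio of stage 0-like over iNKT1-like cells was 0.97 ± 0.16 (SD, n = 4). Fbl followed the same order, at 430, 469, 396 and 430 CPM in stage 0-like cells against 220, 217, 222 and 246 CPM in iNKT1-like cells. Nop56 differed in that its cycling-like level (154, 163, 131 and 169 CPM) exceeded its stage 0-like level (137, 122, 114 and 137 CPM) in all 4 libraries, while both stood above the 78.2 to 80.5 CPM of iNKT1-like cells. Npm1 had the smallest step: 1516, 1726, 1055 and 1438 CPM in stage 0-like cells against 1071, 1112, 934 and 1141 CPM in iNKT1-like cells, a log2 ratio of 0.41 ± 0.20 with overlapping ranges. In iNKT17-like cells Nop56 (53.4 to 69.1 CPM) was lower than in iNKT1-like cells in every library, whereas Fbl (229 to 236 CPM) was above its iNKT1-like level in 3 of 4, a direction that turned with scaling by trimmed means of M values (TMM; log2 ratio -0.11, above in 0 of 4).

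The 2 polyamine enzymes diverged. Srm was at 211, 235, 164 and 153 CPM in stage 0-like cells and at 217, 181, 175 and 164 CPM in cycling-like cells, and between 57.1 and 110 CPM in every sum of the other 3 classes, so that these groups did not overlap. Its log2 ratio of stage 0-like over iNKT1-like cells, 1.09 ± 0.37 (SD, n = 4), was the largest of the 9 genes. Odc1, whose product limits the rate of the pathway, had its highest mean in stage 0-like cells, at 93.5, 83.9, 125 and 100 CPM but lay at only 60.0, 55.9, 69.3 and 85.5 CPM in cycling-like cells. By totals, cycling-like cells were below stage 0-like cells for Odc1 in all 4 libraries (log2 ratio -0.58 ± 0.26), and they were above iNKT1-like cells in 2. With TMM scaling the order of cycling-like and stage 0-like cells turned in Hivep3-/- mouse 2. In iNKT17-like cells Odc1 was at 69.9, 86.6, 47.5 and 74.0 CPM, which overlapped the stage 0-like range and exceeded the stage 0-like level in C57BL/6 mouse 2. The lowest Odc1 levels were those of iNKT2-like cells, at 42.7, 36.0, 38.1 and 39.3 CPM, which did not overlap the iNKT1-like cells at 72.7, 62.0, 50.8 and 59.7 CPM.

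Mettl1 and Ifrd2 had few UMIs and were also higher in stage 0-like than in iNKT1-like cells. Mettl1 was at 51.6, 65.8, 58.9 and 64.8 CPM in stage 0-like cells (75, 47, 138 and 151 UMIs) and at 26.1, 29.9, 31.0 and 39.5 CPM in iNKT1-like cells, without overlap. Ifrd2 was at 35.8, 40.6, 47.4 and 36.9 CPM in stage 0-like cells (52, 29, 111 and 86 UMIs) and between 37.6 and 40.7 CPM in cycling-like cells. In iNKT1-like cells Ifrd2 stood at 17.9 and 17.2 CPM in the C57BL/6 libraries and at 31.8 and 24.3 CPM in the Hivep3-/- libraries, all below the stage 0-like values. Its order among iNKT1-like, iNKT17-like and iNKT2-like cells could not be told beyond the spread between libraries.

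Counted together, 8 of the 9 genes were higher in stage 0-like than in iNKT1-like cells in all 4 libraries, every one but Myc. Their median log2 ratio was 0.86 ± 0.18 (SD of the library medians, n = 4). The same median over the 5311 genes whose mean reached 20 CPM was 0.33, of which 55.3% were higher in every library, so most genes shared this direction. Cycling-like over iNKT1-like cells gave a median of 0.73 ± 0.24 with 7 genes higher in every library, against 0.17 over all genes, of which 48.5% were higher in every library. For iNKT2-like cells the median was 0.14 ± 0.06, with Srm, Ncl, Npm1, Fbl and Mettl1 higher and Myc and Odc1 lower in every library. Over all genes it was 0.01, with 32.9% higher and 30.2% lower in every library. For iNKT17-like cells it was -0.14 ± 0.16, with Myc and Nop56 lower and Mettl1 higher in every library, beside 0.08 over all genes, with 33.5% higher and 19.0% lower. Scaling the sums by TMM in place of their totals shifted every stage 0-like ratio by -0.40 and gave a median of 0.46. With that scaling Myc was at -0.32 (higher in 1 of 4 libraries), Npm1 at 0.02 (2 of 4) and Odc1 at 0.32 (3 of 4). For iNKT17-like cells the shift was -0.15 and the median -0.29, with 5 genes lower and 0 higher in every library, and Mettl1 turned to -0.06 (higher in 1 of 4). For cycling-like cells the shift was -0.11 and the median 0.62. Depth and other markers also moved with these classes, and their part in the ratios was not tested. The median depth of cycling-like cells was 12115 to 15680 UMIs against 3446 to 6467 in iNKT1-like cells. The summed markers of double positive thymocytes, a possible neighbour in the sort, were 143 to 218 CPM in stage 0-like cells against 19.8 to 38.6 CPM in iNKT1-like cells, with at most 1 of the 8 at 0 in stage 0-like cells.

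The wider pathway was read from 8 lists holding 135 genes. Of the 114 that reached a mean of 20 CPM, 101 were higher in stage 0-like than in iNKT1-like cells in every library and 3 were lower, with a median log2 ratio of 0.76 ± 0.04. Over all 5311 genes 55.3% were higher and 22.7% lower in every library, with a median of 0.33. These ratios are by totals, before the TMM shift of -0.40. The 51 genes of nucleolar and ribosomal RNA processing summed to 5081 to 5501 CPM in stage 0-like cells, 4836 to 5265 CPM in cycling-like cells and 2929 to 3205 CPM in iNKT1-like cells. The 14 subunits and factors of RNA polymerase I, which transcribes ribosomal RNA, summed to 1047 to 1063 CPM in stage 0-like cells and 771 to 777 CPM in iNKT1-like cells. The TMM shift of -0.40 in stage 0-like ratios would leave little of this RNA polymerase I gap. Nucleotide synthesis, translation initiation, transfer RNA modification, polyamine metabolism, and growth, transport and chaperones were also higher in stage 0-like than in iNKT1-like cells in every library. These sums are shares of totals and were not rescaled by TMM. The Myc network, 11 genes for partners and antagonists such as Max and the Mxd repressors, was lower in stage 0-like cells in every library, at 287 to 343 CPM against 321 to 435 CPM in iNKT1-like cells.

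Transcripts of the ribosomal proteins themselves did not follow the genes that build the ribosome. The 84 cytosolic ribosomal protein genes took 203864 to 257522 CPM in stage 0-like cells and 248427 to 276748 CPM in cycling-like cells, but 300373 to 321191 CPM in iNKT1-like cells and 337086 to 354835 CPM in iNKT2-like cells. The groups of early and dividing cells lay below those of the 3 effector classes without overlap. CPM are shares of 1 total, so the level of this block and the levels of other genes are not independent.

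**Figure D2:**
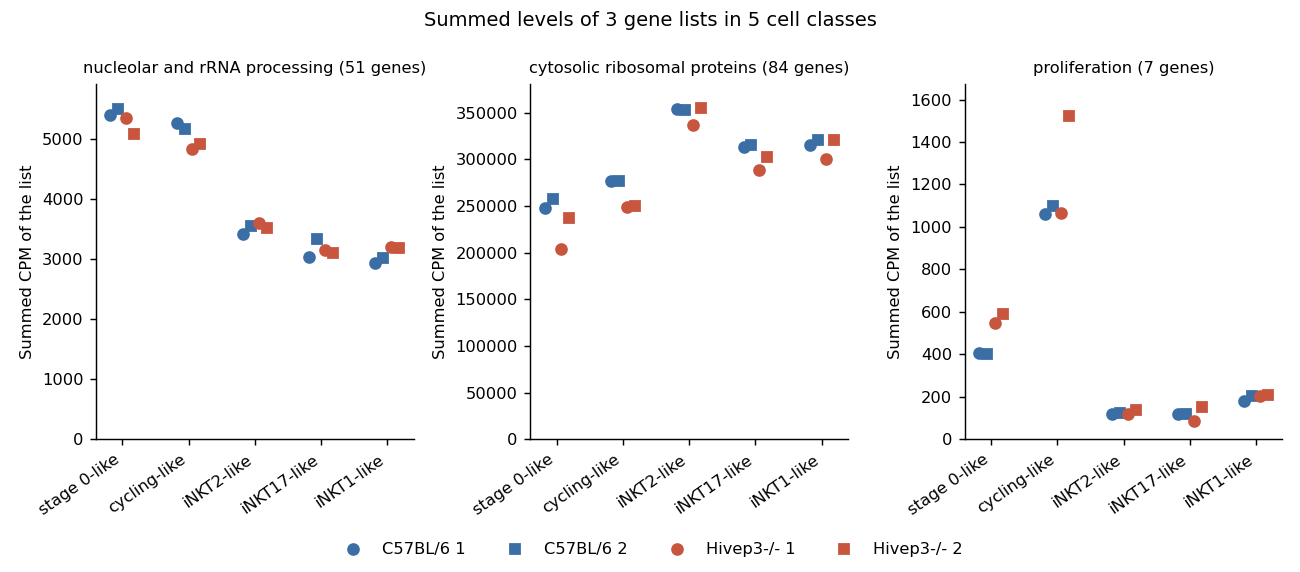
Summed CPM of 3 gene lists in 5 cell classes, 1 point per library (blue C57BL/6, red Hivep3-/-). Nucleolar and ribosomal RNA processing genes are highest in stage 0-like and cycling-like cells, cytosolic ribosomal protein genes are lowest there, and the proliferation list marks the cycling-like cells.

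Over the 20 sums of 5 classes in 4 libraries, Ncl followed the mean of the other 8 genes most closely (Pearson's r = 0.98), then Fbl (0.96), Srm (0.93) and Nop56 (0.90), whereas Npm1 (0.66), Odc1 (0.43) and Myc (0.39) followed it least. The genes outside the 9 whose pattern was most like their mean were Prmt1, a protein arginine methyltransferase (r = 0.98), Exosc3 of the RNA exosome (0.97), Ebna1bp2 of ribosomal RNA processing (0.97), Trim59 (0.97) and Gar1 of the small nucleolar particles (0.96). Mrps22, Cycs, Magoh, Shmt1 and Nolc1 followed at 0.96. Those most like Myc were other genes: the cytokine receptor gene Il21r (r = 0.90), the glucose transporter gene Slc2a1 (0.88), Grap (0.87), the adenosine receptor gene Adora2a (0.86) and Cd2 (0.86). The points share libraries and depth, so these coefficients describe the sums and carry no test.

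Inside the iNKT1-like class the growth genes differed most from the largest cluster, by their median, in 1 cluster of 1114 cells. In this cluster (cluster 6) the chemokine gene Ccl1 and the granzyme genes Gzmb and Gzmc were among the leading genes. It held 207, 266, 404 and 237 cells. Srm was at 202, 180, 214 and 179 CPM there against 64.6, 53.5, 54.9 and 41.3 CPM in the largest iNKT1-like cluster, led by Dusp1 and Klrb1c (cluster 0), a log2 ratio of 1.87 ± 0.21 (SD, n = 4). Mettl1 was at 63.3, 63.3, 61.8 and 70.1 CPM against 19.6, 17.8, 16.4 and 24.0 CPM. For both genes the 2 clusters did not overlap. Ifrd2 (log2 ratio 1.72 ± 0.34), Nop56 (1.17 ± 0.25), Ncl (1.11 ± 0.12), Fbl (1.07 ± 0.11), Npm1 (0.75 ± 0.04) and Odc1 (0.70 ± 0.58) were also higher in cluster 6 in all 4 libraries. Myc had the smallest ratio, 0.45 ± 0.17, at 161, 76.7, 152 and 106 CPM against 110, 66.6, 101 and 76.1 CPM. The median over the 9 genes was 1.17 ± 0.22, beside -0.03 over all 5311 genes, of which 31.8% were higher in cluster 6 in every library.

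Cluster 6 reached the levels of dividing cells for most of these genes. Against cycling-like cells its log2 ratio was within 0.25 of 0 for Srm, Ncl, Npm1, Nop56, Fbl and Ifrd2 (from -0.21 for Nop56 to 0.24 for Ifrd2), whereas Myc (0.58 ± 0.39), Odc1 (0.43 ± 0.20) and Mettl1 (0.35 ± 0.22) were higher in cluster 6 in every library. Its summed iNKT1 markers were 7085 to 10220 CPM against 6871 to 8382 CPM in cluster 0. These sums gave the cluster its name, so they are no separate support for the name. The mean log2 level of its markers over the other clusters was 0.498 for iNKT1 and 0.401 for cycling. Summed cycling markers moved with cluster 6, at 2210 to 3503 CPM against 560 to 647 CPM in cluster 0 and 4949 to 9621 CPM in cycling-like cells. Depth did so too, at a median of 4732 to 8459.5 UMIs per cell against 3303 to 5935. Their part in the ratios was not tested. The cluster was named iNKT1-like by its summed markers, since cell cycle genes stood among its leading genes too.

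By the median of the 9 genes, the other iNKT1-like clusters lay between clusters 6 and 0 or below cluster 0. In the cluster led by Styk1, 8 of the 9 genes were above cluster 0 in every library, beside 18.6% of all genes. In the cluster led by Ccl5 it was 7 of the 9, beside 14.8% of all genes. The cluster led by Styk1, Gzmb and Klra5 was above cluster 0 in every library for Srm (log2 ratio 0.90 ± 0.24), Mettl1 (0.81 ± 0.15), Ifrd2 (0.72 ± 0.30) and Myc (0.54 ± 0.05), and not for Odc1 (-0.14 ± 0.38). In the cluster led by Ccl5 and Gzma, Mettl1 (0.71 ± 0.13), Myc (0.58 ± 0.21), Ifrd2 (0.58 ± 0.24) and Srm (0.55 ± 0.28) were above cluster 0 in every library. The cluster led by Ifit3 and other genes that interferon induces was below cluster 0 in every library for Srm (-0.42 ± 0.19), Fbl (-0.32 ± 0.19) and Npm1 (-0.13 ± 0.07). For Myc the mean ratio of cluster 6 was below those of the clusters led by Styk1 and by Ccl5, unlike for Srm and Mettl1.

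**Figure D3:**
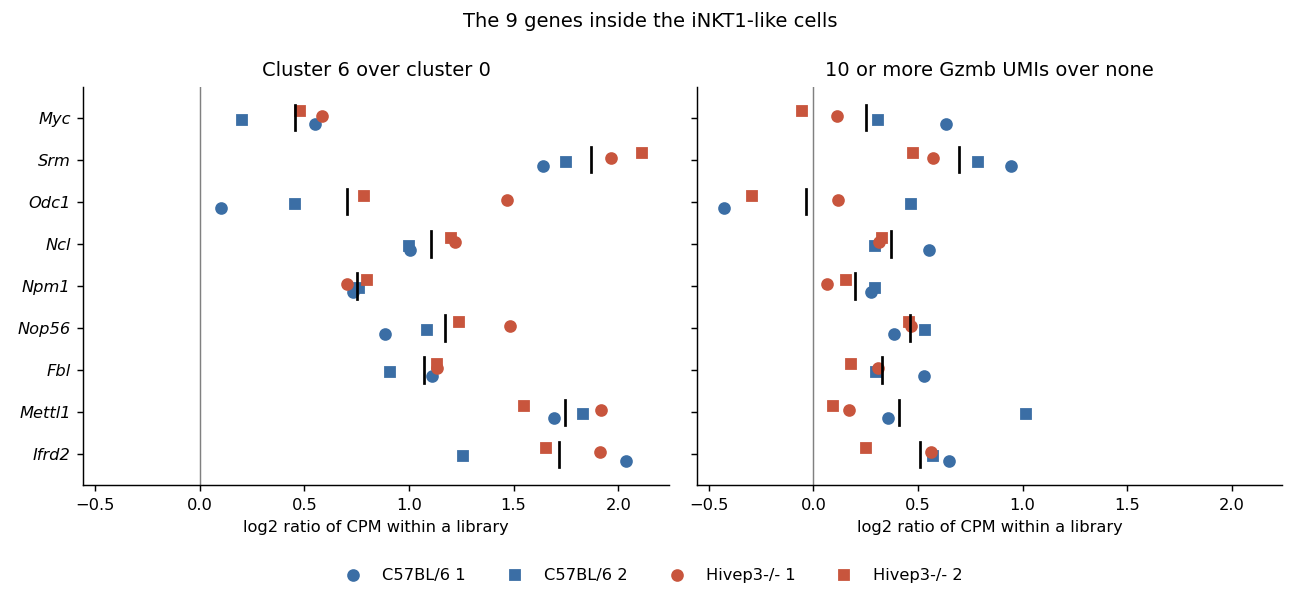
Log2 ratio of CPM within each library, by gene, for cluster 6 over cluster 0 (left) and for iNKT1-like cells with 10 or more Gzmb UMIs over those with none (right), with points for libraries (blue C57BL/6, red Hivep3-/-) and a line at their mean. Every point of the left panel is above 0, with the largest mean for Srm (1.87), and in the right panel Srm has the largest mean (0.69) and Odc1 sits around 0.

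Gzmb codes for granzyme B, a protease of cytotoxic granules. It was detected in 60.7% of iNKT1-like cells (mean of 4 libraries) and in 1.87% of stage 0-like cells, at median depths of 3446 to 6467 and 3233 to 5533 UMIs, and after thinning cells to 2000 UMIs in 48.6% and 0.66%. The 6972 iNKT1-like cells with at least 1 Gzmb UMI were compared with the Gzmb-negative iNKT1-like cells of the same mouse by edgeR's quasi-likelihood test on summed counts with the library as a block. Of the 9 genes, 1 passed an adjusted p of 0.05, while 3.13% of all genes tested did. Srm was at 74.4, 71.8, 90.1 and 78.8 CPM in Gzmb-negative cells and at 93.7, 90.6, 104 and 89.6 CPM in Gzmb-positive cells. It was higher in all 4 mice, and its log2 fold change was 0.26 ± 0.05 (SE; Benjamini-Hochberg adjusted p = 0.0199). That call did not hold when any 1 library was left out (adjusted p between 0.0534 and 0.0721), without cluster 6 (adjusted p = 0.051), with cells thinned to 2000 UMIs (adjusted p = 0.205) or with DESeq2 (adjusted p = 0.153), while the sign stayed positive in each.

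The remaining genes did not pass at this gate. Nop56 had a log2 fold change of 0.18 ± 0.05 (adjusted p = 0.0601), with a rise of 0.17 to 0.19 in each of the 4 mice, and Fbl of 0.13 ± 0.04 (adjusted p = 0.139). Ifrd2 was at 0.18 ± 0.09, Myc at 0.13 ± 0.07 and Odc1 at -0.16 ± 0.07, the single negative value. Of 133 tested genes in the 8 lists, 4 were higher and 0 lower, close to the 3.13% of all genes that passed in either direction. They were Ranbp1 of nuclear transport (0.26), Pa2g4, a growth regulator (0.18), the cyclin gene Ccnd2 (0.18) and the Myc antagonist gene Mxd4 (0.30). The lists had a median of 0.05 beside -0.01 over all genes.

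A gate of at least 10 Gzmb UMIs, chosen after the first gate was seen, gave larger differences. Against cells without a Gzmb UMI, 6 of the 9 genes were higher by the same test, where 9.3% of all genes passed in either direction. Srm reached 143, 124, 134 and 110 CPM, a log2 fold change of 0.66 ± 0.08 (adjusted p = 0.000115). Nop56 reached 95.3, 104, 101 and 102 CPM against 73.0, 71.6, 73.1 and 74.1 CPM, a fold change of 0.48 ± 0.07 on the log2 scale (adjusted p = 0.000502). Neither gene overlapped between the 2 sets of cells. Ncl (0.37, adjusted p = 0.000864), Fbl (0.32, adjusted p = 0.00442), Npm1 (0.21, adjusted p = 0.0171) and Ifrd2 (0.48, adjusted p = 0.0169) also passed. Myc (0.20 ± 0.09, adjusted p = 0.191), Mettl1 (0.37 ± 0.14, adjusted p = 0.122) and Odc1 (0.04 ± 0.11, adjusted p = 0.904) did not. In the lists, 32 of 133 genes were higher and 1 lower, the latter Sat1, an enzyme of polyamine breakdown (-0.49), with a median of 0.19 beside -0.01 over all genes. The growth, transport and chaperone genes made up 9 of those (Ranbp1 0.62, Phb 0.50, Hspd1 0.45, Ran 0.39), the nucleolar genes 12 (Pa2g4 0.55, Nop58 0.41, Nhp2 0.41, Mrto4 0.38) and RNA polymerase I none.

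Other quantities moved with this gate. Cells with at least 10 Gzmb UMIs had a median depth of 4428 to 7620 UMIs against 3313 to 6145, and cluster 6 supplied 19.2% to 28.0% of them but 2.81% to 6.68% of the Gzmb-negative cells. Cells at this gate were fewest in C57BL/6 mouse 1. The cluster led by Styk1 and Gzmb gave 38 of them there, against 111, 204 and 172 in the other libraries. Of 7 proliferation genes 6 were higher, all 6 tested genes of the cytotoxic granule (Gzmb, which set the gate, among them) were higher, and 6 of 12 activation genes were lower. After thinning cells to 2000 UMIs and gating at 4 or more Gzmb UMIs, 5 of the 9 genes passed: Srm, Ncl, Nop56, Fbl and Ifrd2. Of all 8068 genes tested in this setting, 243 passed in either direction.

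**Figure D4:**
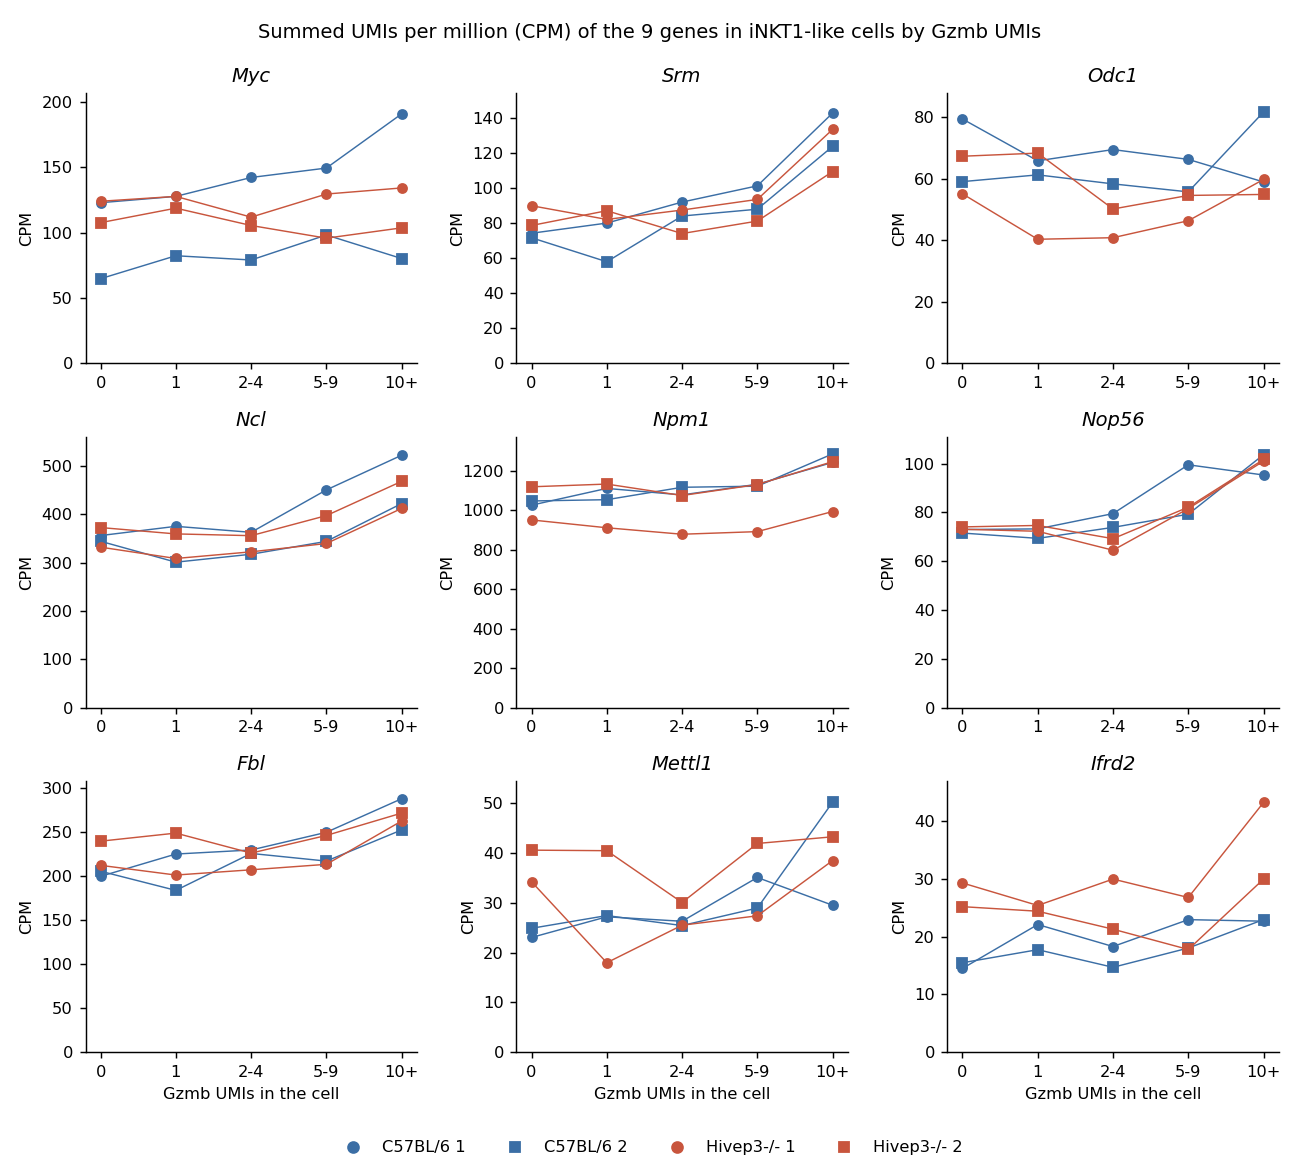
CPM of the 9 genes in iNKT1-like cells grouped by Gzmb UMIs per cell (0, 1, 2 to 4, 5 to 9, 10 or more), with 1 line per library (blue C57BL/6, red Hivep3-/-). Srm, Ncl, Npm1 and Fbl are highest at 10 or more Gzmb UMIs in all 4 libraries and Nop56 in 3. Myc rises most in C57BL/6 mouse 1 (from 123 to 191 CPM), the library with the fewest cells at 10 or more. Odc1 lines have no common direction.

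Cells with a Myc UMI were also set beside cells without one among iNKT1-like cells thinned to 2000 UMIs. Nop56 (log2 ratio 0.31 ± 0.14), Srm (0.28 ± 0.21) and Fbl (0.18 ± 0.13) were higher in the Myc-positive cells of all 4 libraries. Ncl (0.06 ± 0.18) was higher in 2, and Mettl1 (-0.20 ± 0.62) and Odc1 (-0.16 ± 0.37) in 1. Detection of a low transcript is sparse at this depth, and these ratios are a description.

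None of the growth genes passed between genotypes in edgeR's quasi-likelihood test on sums of 2 mice against 2, in any of 7 sets of cells. In all cells together, a sum that also carries the class shares of each library, 0 of the 9 genes passed, against 0.765% of all genes. The counts were 0 of 9 in stage 0-like cells (0.275% of all genes), cycling-like cells (2.53%), iNKT2-like cells (0.307%), iNKT17-like cells (0.0658%), iNKT1-like cells (0.972%) and Gzmb-positive iNKT1-like cells (0.337%). DESeq2 called 0 of 9 in each set as well, and by edgeR's unadjusted p under 0.05 the sets held 2, 2, 3, 0, 2, 1 and 2 genes in that order. With 2 mice in a group, a p that misses the threshold does not show equal levels, and sex was uneven between the groups.

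Srm, Npm1 and Ifrd2 had the largest single values. In stage 0-like cells Srm was at 211 and 235 CPM in C57BL/6 and at 164 and 153 CPM in Hivep3-/- mice, which did not overlap, with a log2 fold change of -0.62 ± 0.16 (SE; adjusted p = 0.179). Npm1 in cycling-like cells was at 1720 and 1704 CPM against 1162 and 1463 CPM, a log2 fold change of -0.54 ± 0.14 (adjusted p = 0.107), and in stage 0-like cells its change was -0.50 ± 0.20 (adjusted p = 0.495). Npm1, Ncl and Nop56 had negative values in all 7 sets, which share cells. These signs turned in some alternatives, reaching 0.05 for Npm1, 0.11 for Ncl and 0.03 for Nop56 in iNKT1-like cells. In Gzmb-positive iNKT1-like cells they reached 0.02, 0.11 and 0.02 in the same order. Ncl also turned in iNKT2-like cells (0.004) and Nop56 in iNKT17-like cells (0.01). Ifrd2 had the opposite sign in iNKT1-like cells, 0.59 ± 0.16 (adjusted p = 0.203), and its 2 genotypes did not overlap there. Myc lay between -0.24 in stage 0-like cells and 0.46 ± 0.28 in cycling-like cells, with adjusted p of at least 0.475 in all sets. None of the 130 to 134 tested genes in the 8 lists passed in any set, and their median log2 fold change was -0.12 in stage 0-like cells and 0.04 in iNKT1-like cells, beside 0.02 and -0.0035 over all genes. The iNKT1-like class was made up differently in the genotypes: cluster 0 held 50.7% and 47.6% of it in C57BL/6 and 25.9% and 26.9% in Hivep3-/- mice, and the cluster led by Ccl5 and Gzma held at most 12.7% in C57BL/6 against at least 25.3% in Hivep3-/- mice.

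**Figure D5:**
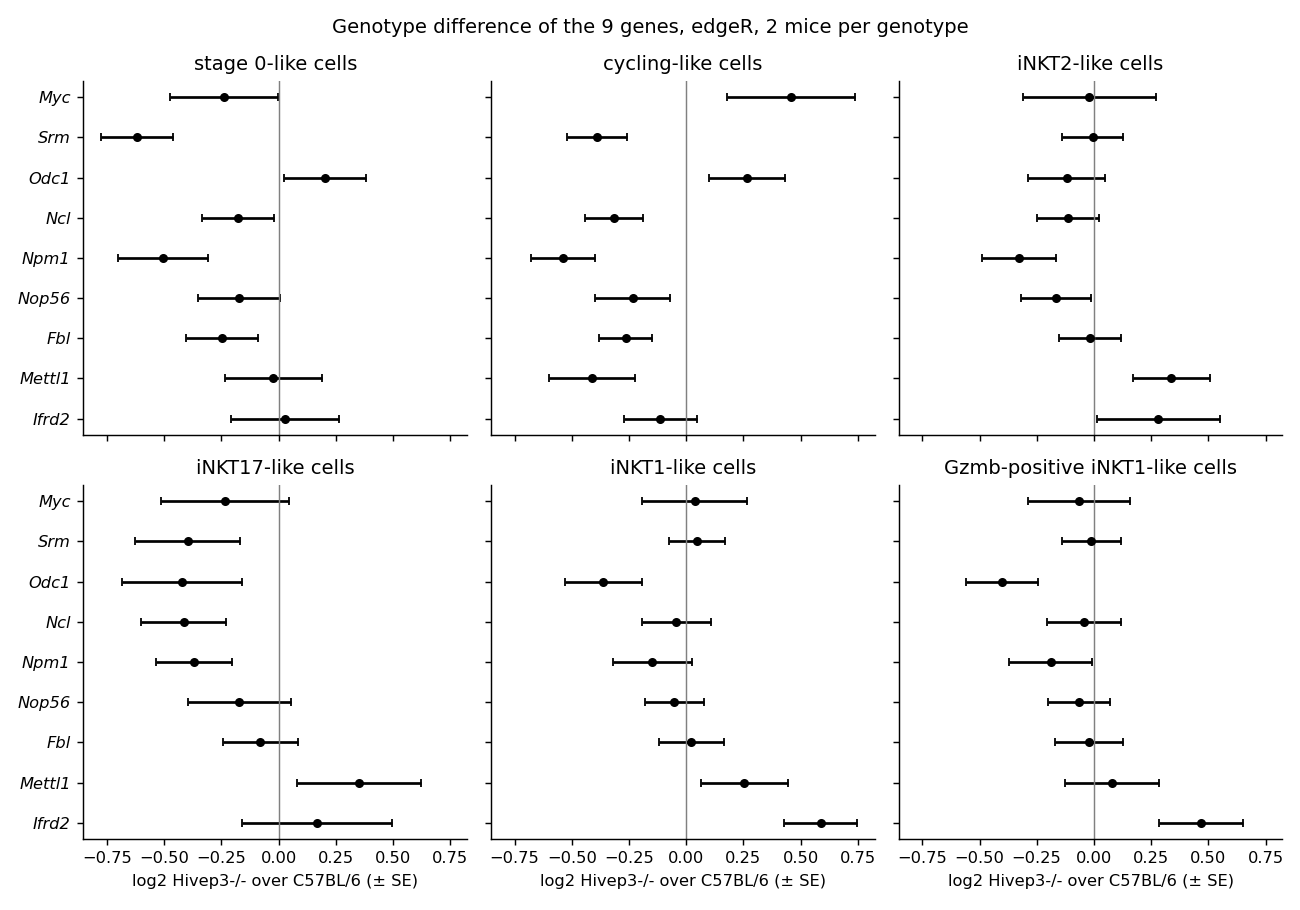
Log2 fold change of Hivep3-/- over C57BL/6 with its SE for the 9 genes in 6 sets of cells, from edgeR (2 mice per genotype). Npm1, Ncl and Nop56 lie left of 0 in every panel, though in several panels these signs turn in some alternative. Srm is farthest left in stage 0-like cells (-0.62), Ifrd2 is farthest right in iNKT1-like cells (0.59), and no gene passed an adjusted p of 0.05.

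Whether the step from stage 0-like to iNKT1-like cells differed between genotypes was tested as an interaction with the library as a block. It passed for 2 of the 9 genes, while 3.01% of all genes passed. The log2 ratio of stage 0-like over iNKT1-like cells for Srm was 1.31 and 1.48 in C57BL/6 mice and 0.72 and 0.84 in Hivep3-/- mice, an interaction of -0.66 ± 0.14 (SE; adjusted p = 0.00324). For Npm1 it was 0.50 and 0.63 against 0.18 and 0.33, an interaction of -0.36 ± 0.10 (adjusted p = 0.0306). Both steps were smaller in each Hivep3-/- mouse than in each C57BL/6 mouse. Srm passed with DESeq2 (adjusted p = 0.0342) and did not without the second C57BL/6 library (-0.57, adjusted p = 0.0696), and Npm1 did not with DESeq2 (adjusted p = 0.0913), without the second C57BL/6 library (adjusted p = 0.381) or without the first Hivep3-/- library (adjusted p = 0.27). Odc1 went the other way, with 0.36 and 0.44 against 1.30 and 0.74 (interaction 0.60 ± 0.18, adjusted p = 0.0745). In the lists 3 genes were called with a positive interaction (Ubtf 0.70, Max 0.57, Ccnd2 0.52) and 3 with a negative one (Gnl3 -0.54, Nhp2 -0.48, Hspd1 -0.44) of 133 tested.

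The difference between Gzmb-positive and Gzmb-negative cells also differed between genotypes for 2 of the 9 genes, at a background of 4.05% of all genes. Myc was higher in Gzmb-positive cells by 0.21 and 0.40 on the log2 scale in C57BL/6 mice and by 0.02 and -0.04 in Hivep3-/- mice, an interaction of -0.30 ± 0.08 (SE; adjusted p = 0.0341). For Mettl1 the values were 0.32 and 0.39 against -0.22 and -0.06, an interaction of -0.51 ± 0.14 (adjusted p = 0.0339). Gzmb-negative cells were not the same cells in the genotypes, since cluster 0 held 71.4% and 73.2% of them in C57BL/6 and 34.3% and 37.2% in Hivep3-/- mice. Inside the cluster led by Styk1 and Gzmb alone the Myc interaction was 0.16 and that of Mettl1 -0.39 (adjusted p = 0.984 for both), and without cluster 6 they were -0.28 (adjusted p = 0.075) and -0.48 (adjusted p = 0.146). Neither passed with DESeq2. Myc passed when the first C57BL/6 library was left out (-0.41, adjusted p = 0.0111) and Mettl1 when the second Hivep3-/- library was (-0.60, adjusted p = 0.0193), and with any other library left out each missed the threshold (adjusted p between 0.0755 and 0.361). Of 133 genes in the lists, Smox (0.62) and Mxd4 (0.30) had a positive interaction and Ltv1 (-0.55) and Ppan (-0.40) a negative one.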

How the data were processed

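Untreated mice gave 4 libraries, 1 per mouse. Per the submitters' processing notes and the methods, the deposited UMI counts per gene and cell (31053 genes) came from Cell Ranger 3.1.0 on mm10, and the authors then used Seurat 3.1.4. Cells with at least 500 and under 4100 genes, at least 1000 UMIs and under 6% mitochondrial UMIs were kept (19647 cells). Scrublet's own threshold marked 1 to 4 cells a library and so did not work; removing the highest 5% of its scores was an alternative. Cells were clustered after a mutual nearest neighbour correction (2000 variable genes, 30 components, 20 neighbours, resolution 0.8), with 432 genes, the 9 among them, barred. Summed counts were tested with edgeR 4.0.16 (quasi-likelihood, TMM, two-sided, Benjamini-Hochberg over all genes tested), after tests on simulated data. Library totals were 31381738 to 48291764 UMIs. The 9 genes, the gene lists and the tests were chosen with earlier results of these data known. All 9 genes were tested in each comparison, and values are given for only some of them. Called genes of the lists are named only in part. At most 4 of smallest p per list are named, at a mean of 20 CPM or more. Likeness of pattern was Pearson's r of log2 CPM. Alternatives were DESeq2, filters, gates, clusterings, blocks and left-out libraries. Software was R 4.3.3, Python 3.11.15 and scanpy 1.11.5.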

Additional observations from a re-analysis of the deposited data

Results flagged for a closer look

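Each log2 ratio of 2 sets of cells was examined over the 4 libraries for a library far from the other 3, and 3 of 117 sets of ratios stood out, where chance flags about 1 in 20. The ratio of cluster 6 over cluster 0 for Fbl was 0.91 in the second C57BL/6 library and 1.11 to 1.14 in the others. The ratio of iNKT1-like cells with at least 10 Gzmb UMIs over those with none for Ncl was 0.55 in the first C57BL/6 library and 0.29 to 0.33 in the others. The first C57BL/6 library had the fewest cells at this gate. The ratio of cycling-like over stage 0-like cells for Srm was -0.37 in the second C57BL/6 library and 0.04 to 0.10 in the others.

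Differences between the genotypes in the same contrast were found by an interaction term for 4 values. The Gzmb difference in iNKT1-like cells differed by -0.30 for Myc and by -0.51 for Mettl1, and the difference of stage 0-like from iNKT1-like cells differed by -0.66 for Srm and by -0.36 for Npm1 (log2, Hivep3-/- minus C57BL/6). None of these 4 passed without the library as a block, and of them only Srm passed with DESeq2.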

How the results depend on the processing

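Of 362 alternative values of the 30 single-gene results with an unadjusted p under 0.05 or a call in any setting, 302 kept direction and side of the threshold, 25 passed it newly, 32 no longer passed and 3 reversed: Odc1 at 10 Gzmb UMIs (0.038), and in the Gzmb interaction Myc in the cluster led by Styk1 and Gzmb alone (0.16) and Odc1 without cluster 6 (0.16). Of the 60 other single-gene values, 36 changed sign in at least 1 alternative, Npm1, Ncl and Nop56 between genotypes in iNKT1-like cells among them. The alternatives behind the 3 reversals were chosen after seeing the data, as were the gates of 10 and of 4 UMIs, the settings without cluster 6, and the left-out libraries and missing blocks of both interactions. Of the genotype counts of 0 in the 9 genes, those in all cells (Npm1), cycling-like (Npm1) and iNKT1-like cells (Ifrd2) became 1 with no filter on low counts, that in cycling-like cells 1 with no upper limit on genes (Srm), and that in stage 0-like cells 0 to 1 with a library left out (1, Npm1, without the second Hivep3-/- library).

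Same-numbered mice correlated at 0.06 to 0.28 in their deviations from the group means, over only 2 pairs, so the numbers were not taken as pairs. With replicate numbers as a block, the genotype count in stage 0-like cells was 1 (Srm, adjusted p = 0.0495) and 0 elsewhere. The block moved the counts over all genes from 94 to 212 (all cells), 24 to 126 (stage 0-like) and 261 to 386 (cycling-like). In the other sets they moved from 29 to 183 (iNKT2-like), 5 to 22 (iNKT17-like), 106 to 210 (iNKT1-like) and 35 to 18 (Gzmb-positive). With no block for the library, 0 of the 9 genes passed in the Gzmb contrast and in both interactions.

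The 1 gene of the Gzmb contrast became 0 with DESeq2, with any library left out (0 to 0), with no upper limit on genes, at resolution 1.2, thinned, above the median UMI count, in the cluster led by Styk1 and Gzmb alone and without cluster 6, and 2 with no filter or at 2 UMIs, 5 at 4 UMIs thinned and 6 at 10 UMIs. The 2 genes of the Gzmb interaction became 0 to 2 with a library left out, 0 with DESeq2, in the cluster led by Styk1 and Gzmb and without cluster 6, and 5 at resolution 1.2. The 2 genes of the class interaction became 0 to 3 with a library left out and 1 with DESeq2. The causes were not tested. Counts over all genes ranged from 14 to 965 in the genotype contrast of all cells, 11 to 255 (stage 0-like), 75 to 1004 (cycling-like), 29 to 339 (iNKT2-like), 4 to 91 (iNKT17-like), 40 to 522 (iNKT1-like), 5 to 304 (Gzmb-positive), 7 to 896 (Gzmb contrast), 0 to 554 (Gzmb interaction) and 20 to 410 (class interaction), the highest mostly with no filter. Median class ratios over the 9 genes ranged with a library left out from 0.77 to 0.90 (stage 0-like), 0.66 to 0.82 (cycling-like), 0.12 to 0.16 (iNKT2-like) and -0.20 to -0.09 (iNKT17-like); TMM gave 0.46 for stage 0-like and -0.29 for iNKT17-like cells, and no upper limit on genes 0.21 for iNKT2-like cells. Mettl1 and Ifrd2 rest on few UMIs.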
